A study of Drosophila melanogaster with 7 samples.

Results

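The baseline transcriptome of the wild-type wing imaginal disc was described from 3 RNA sequencing libraries of third-instar Drosophila melanogaster larvae. They are the 3 samples labelled WT among the 7 of the series, and were chosen because their count columns begin with w1118. The other 4 samples come from discs of ds38k mutants and entered no value given here. The stock w1118 carries a mutation of the eye colour gene white (w) and is widely used as a laboratory wild type. Treatment is given only as WT, and no source used here gives the sex of the larvae, their age within the instar or the number of discs per library. A tag in the column names, csvd111, is not explained either. Whether the 3 replicates were dissected from different groups of larvae, or from 1 culture of the stock, is not stated, so the spread between them may be technical or may hold differences between cultures.

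The wing imaginal disc is an epithelial sac that grows inside the larva and later forms the wing blade, the hinge and the dorsal wall of the thorax, the notum. The homeodomain proteins Engrailed and Apterous set its posterior and dorsal compartments, and cells along the compartment boundaries secrete Decapentaplegic and Wingless, which pattern and grow the tissue. The disc also carries muscle precursor cells and tracheal branches that are dissected with it.

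The libraries held 21438650, 31718949 and 26756529 estimated counts in replicates 1, 2 and 3, so 3 counts, taken as the floor of detection, were 0.140, 0.0946 and 0.112 counts per 1000000 (CPM). CPM is the count of a gene divided by the total of its library and does not correct for transcript length. Levels of different genes were therefore compared as transcripts per 1000000 (TPM), for which counts were divided by the median annotated transcript length. Errors are SD over the 3 libraries (n = 3), and a percentile is the place of a gene's mean TPM among 13649 protein-coding genes. The floors cover counting error only, whereas the SD holds all differences between the libraries. No test was run, since the 3 libraries form 1 group.

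Replicate 1 stood apart for a small set of genes. Among the 6431 genes that averaged 10 CPM or more, 38 were at least 10-fold away from both other libraries in replicate 1, against 3 in replicate 2 and 1 in replicate 3, a rule chosen after the values were seen. Members of the gene lists used here that it touched were the proteasome gene Prosalpha1 and 3 histone H1 copies. Replicate 3 held more transcripts of the mitochondrial genome and a larger share of long transcripts than the others. All 3 libraries entered the values below, and many of the values that rest on one of them are given with each library's own level.

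Of 17208 genes in the table, 7841 (45.6%) reached 1 CPM in all 3 libraries, called detected from here on. Among protein-coding genes 7448 of 13649 (54.6%) were detected. Their TPM levels spanned a wide range, in which 5598 protein-coding genes had a mean under 1 TPM, 1359 lay between 1 and 10, 4268 between 10 and 100, 2328 between 100 and 1000, and 96 reached 1000 TPM. The median was 7.85 TPM over all protein-coding genes and 59.7 TPM over the detected ones. The 10 most abundant genes of a library took 7.04 ± 0.496% of its counts, the top 100 took 21.2 ± 0.758% and the top 1000 took 59.8 ± 0.783%.

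The most abundant transcripts encoded chaperones, translation factors and the cytoskeleton. Hsc70-4, a constitutive chaperone, ranked first with 13849 ± 3037 TPM, followed by eEF1alpha1, the elongation factor that brings aminoacyl-tRNA to the ribosome, with 12287 ± 1489 TPM. In CPM, Hsc70-4 had 17255, 12215 and 11646 in replicates 1, 2 and 3. The level in replicate 1 lay above both others, and the TPM ranges of the pair overlapped. The poly(A)-binding protein gene pAbp (7460.4 ± 1056 TPM), betaTub56D (6882 ± 1160.1 TPM), Act5C (6684 ± 532 TPM) and alphaTub84B (4891 ± 999 TPM) came next. Hsp83, which encodes the Hsp90 chaperone, reached 4624 ± 429.6 TPM. The other 8 of the 15 highest were nw, eEF2, Rm62, CG2852, ATPsynC, eIF4A, Act42A and 14-3-3epsilon, at 2841 to 4483 TPM. The transcription factor gene br, a target of the steroid ecdysone, ranked 27th at 2168 ± 558 TPM.

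The labelled tissue was checked against 5 defining markers, and all were detected. The pouch genes nub and sd stood at 517 ± 97.5 and 451 ± 57.8 TPM, the dorsal selector ap at 412 ± 61.0 TPM, the thoracic Hox gene Antp at 122 ± 34.0 TPM, and the wing selector vg at 70.9 ± 16.6 TPM. The eye colour gene w was at or near the floor, with 0.187, 0.0946 and 0.336 CPM in replicates 1 to 3.

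Genes of the wing pouch, the part that forms the blade, had the highest median level of the pouch, hinge and notum lists. All 14 were detected, with a median percentile of 89.9 ± 1.57. In bulk tissue fewer cells of a region and less RNA per cell cannot be told apart, here and in what follows. The POU-domain gene nub had 565, 775 and 798 CPM in replicates 1, 2 and 3, and ranked 276 among protein-coding genes by TPM. For sd, which encodes the TEAD protein that binds DNA for both Vestigial and Yorkie, the values were 573, 589.6 and 692 CPM. The TPM ranges of nub and sd overlapped, and both lay above rn, the next gene, at 228 ± 16.0 TPM. Replicate 1 was lowest for each of these pouch genes.

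The other pouch genes, Dpp targets among them, were spread over a wide range of levels. The zinc finger gene salm stood at 213 ± 25.6 TPM and its neighbour and relative salr at 114 ± 9.44 TPM. The T-box gene bi, also called optomotor-blind, had 149.5 ± 45.2 TPM and 218, 251 and 366 CPM, highest in replicate 3. The vein gene kni, which encodes a nuclear receptor family protein, was close in all libraries at 62.7, 63.7 and 65.3 CPM, while its relative knrl was the lowest of the pouch genes at 34.5 ± 12.3 TPM. The transcription factor genes vvl, Dll, nab and dve lay between 138 and 191 TPM. The wing selector vg ranked only 12th of the 14 pouch genes. It had 91.9, 102 and 136 CPM. Its level per length was 0.156 ± 0.0162 of that of its partner sd, or 0.272 with the longest annotated transcripts. The blistered gene bs, which encodes the serum response factor of the intervein cells, stood next to it at 55.7 ± 10.6 TPM, and their ranges overlapped. Of the 14 pouch genes, 13 were highest in replicate 3. Of all 7448 detected protein-coding genes 36.7%, 37.1% and 26.2% were highest in replicates 1, 2 and 3.

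Hinge genes, which pattern the joint between blade and body, were led by hth at 446 ± 239 TPM. This gene encodes a homeodomain protein that brings Extradenticle into the nucleus. It also had the largest spread of the hinge list, with 491, 629.8 and 1249 CPM in replicates 1 to 3, so replicate 3 was more than 2-fold above replicate 1. The partner gene exd had 285, 355 and 459.6 CPM, and hth stood 1.29 ± 0.349-fold above it per length, with ratios of 1.07, 1.11 and 1.69 by library. With the longest annotated transcript in place of the median length this ratio fell under 1, to 0.926. The zinc finger genes zfh2 (256 ± 70.4 TPM) and tsh (253 ± 28.0 TPM) followed, with overlapping ranges. Sox15 and noc stood at 159 ± 10.9 and 142 ± 11.6 TPM. The T-box genes Doc1, Doc3 and Doc2 were at 78.0 ± 10.6, 72.0 ± 15.0 and 36.9 ± 6.13 TPM, all highest in replicate 2. The leg and hinge gene dac was the lowest of the 11, at 17.3 ± 6.16 TPM. All 11 were detected, with a median percentile of 79.6 ± 5.38.

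Notum genes were detected in 11 of 11 cases but at lower levels, with a median percentile of 63.5 ± 1.59. The Iroquois genes mirr, ara and caup, which specify the notum and lateral body wall, led at 164 ± 20.7, 128 ± 13.1 and 75.7 ± 13.5 TPM. The Pax genes toe and eyg stood at 71.0 ± 16.9 and 39.7 ± 4.20 TPM, and their ranges did not overlap. The GATA factor gene pnr, which marks the medial notum, had 33.0, 26.6 and 34.0 CPM in replicates 1, 2 and 3. Per length, nub stood 22.7 ± 5.84-fold above pnr, with ratios of 16.7, 28.4 and 22.9 by library. The tendon gene sr and the Bar genes B-H2 and B-H1 were lowest, at 10.9 ± 2.44, 9.20 ± 1.98 and 5.89 ± 0.159 TPM. Of the notum genes 7 of 11 were highest in replicate 1, whereas 0 of 14 pouch genes and 0 of 11 hinge genes were, against 36.7% of all detected protein-coding genes.

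**Figure D1:**
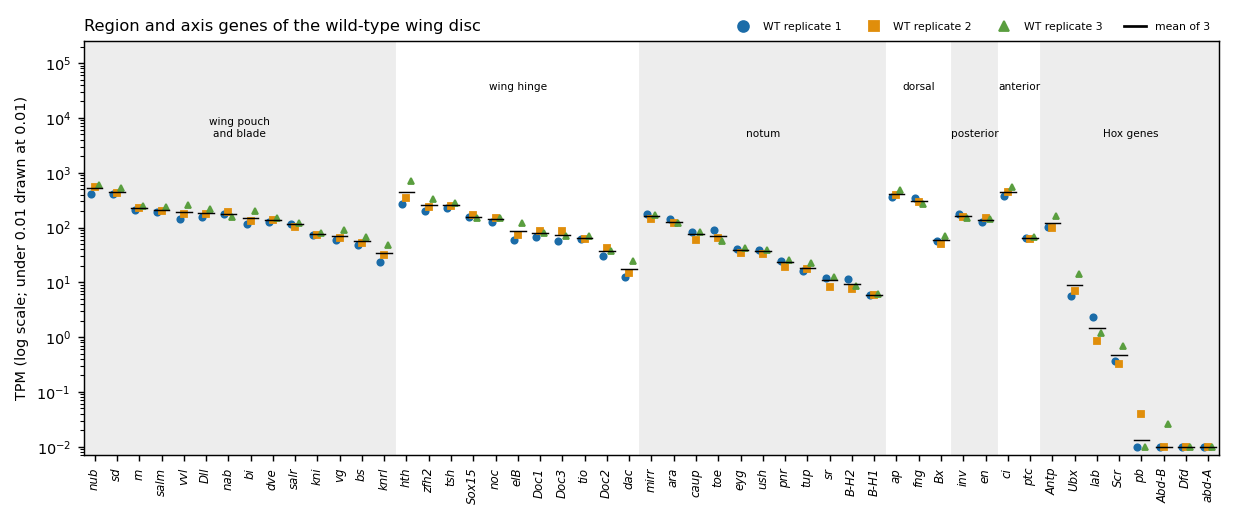
Levels of region, compartment and Hox genes in TPM on a log scale, with 1 symbol per wild-type library and a bar at the mean of 3; values under 0.01 TPM are drawn at 0.01. Pouch genes run from nub at 517 TPM to knrl at 34.5 TPM, notum genes from mirr at 164 to B-H1 at 5.89 TPM, and of the Hox genes only Antp and Ubx lie above 5 TPM.

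Compartment genes were all well above the median detected gene or close to it. The dorsal genes ap and fng, which encodes a glycosyltransferase that modifies Notch, reached 412 ± 61.0 and 299.9 ± 39.7 TPM. Bx, whose LIM-only product limits Apterous activity, stood at 59.1 ± 10.5 TPM. The posterior selector en and its neighbouring paralogue inv had 139.9 ± 10.6 and 162 ± 14.2 TPM. In CPM, en had 143, 168 and 156 and inv 257, 231 and 210.3 in replicates 1 to 3, so inv was highest in replicate 1 and en in replicate 2. The ratio of en to inv was 0.873 ± 0.132 per length and below 1 in each library, but it rose to 1.15 with the longest annotated transcripts. The anterior gene ci, which encodes the transcription factor of the Hedgehog pathway, ranked 334 with 779.9, 932 and 1113 CPM, highest in replicate 3.

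Hox genes were represented by Antp, the Hox gene of the middle thoracic segment that bears the wing. It had 206, 201 and 308 CPM in replicates 1, 2 and 3. Ubx, which gives the haltere its identity in the segment behind and is known in the wing disc from its covering peripodial layer, had 9.19, 11.9 and 22.9 CPM. Antp stood 14.7 ± 3.78-fold above Ubx per length. Replicate 3 was highest for both, by a larger factor for Ubx, and the Antp to Ubx ratio there was the lowest of the 3. The more anterior Hox genes lab and Scr reached at most 2.15 and 1.20 CPM in any library, and pb and Abd-B lay under the floor. Dfd and abd-A had 0 counts in each library, which allows up to 0.140, 0.0946 and 0.112 CPM.

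Genes of other discs were mixed. Of 7 regulators of eye and antenna, eya (76.7 ± 8.06 TPM), ss (27.5 ± 5.88 TPM) and so (23.5 ± 3.53 TPM) were detected. The eye selectors ey and toy, the proneural gene ato and the photoreceptor gene gl each stayed at or below 0.631 CPM. Among 8 leg disc regulators, al had 60.5 ± 6.34 TPM and bab2 30.6 ± 5.76 TPM. Sp1, a zinc finger gene of leg growth, had 1.03, 0.410 and 12.4 CPM, and its neighbour btd had 0.746, 0.536 and 3.70 CPM, so both were several-fold higher in replicate 3 than in either other library. The T-box gene H15 stayed at or near the floor in all 3.

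The listed secreted and membrane-bound ligands were as a group lower than the listed receptors. The lists were not matched by pathway, and the receptors include the ecdysone receptor subunits, whose ligand is a steroid. Of 39 ligand genes, 25 were detected and the median percentile was 49.8 ± 1.17, whereas 27 of 31 receptor genes were detected with a median percentile of 85.7 ± 1.16. The transducers of the same pathways had 43 of 43 detected and a median percentile of 80.7 ± 0.897. Of the ligands 64.1% and of the receptors 87.1% were detected, against 54.6% of all protein-coding genes, whose median percentile is 50.0. The ligand median thus lay near that of all protein-coding genes. The median detected protein-coding gene lies at percentile 72.7. Ligands included the insulin-like peptides and several genes of other tissues or stages, and the lists were chosen from textbook knowledge of fly signalling, so these medians describe the lists.

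Among Wnt ligands wg, the founding member, was highest. It had 160.4, 200.4 and 248 CPM in replicates 1, 2 and 3, and 165 ± 39.0 TPM. The TPM ranges of wg and the next gene, Wnt5 (93.0 ± 2.0 TPM), did not overlap. Wnt5, which signals through the Derailed receptors in axon guidance, was the steadiest of the group with 152, 157 and 154 CPM. Wnt6, which lies beside wg and is expressed in much the same pattern, had 20.4, 31.1 and 35.7 CPM, and wg stood 6.91 ± 0.691-fold above it per length. Wnt2 (19.4 ± 4.07 TPM) overlapped Wnt6 in range. Wnt4 and Wnt10 were low, at 4.81 ± 2.34 and 1.50 ± 0.178 TPM, and wntD had 0 counts in all 3 libraries. Replicate 3 was highest for 4 of the 6 Wnt genes with counts, and replicate 1 for none. Of all detected protein-coding genes 26.2% were highest in replicate 3 and 36.7% in replicate 1.

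Wnt receptor genes ranged widely, with 7 of 9 detected and a median percentile of 79.6 ± 0.210, against 85.7 ± 1.16 over all listed receptors. The Wingless receptor gene fz2 ranked 127 among protein-coding genes, at 877 ± 62.0 TPM and 1658, 1565 and 1718 CPM. Its relative fz, which acts in planar cell polarity as well, had 116 ± 35.8 TPM and 139.6, 175 and 244 CPM. The ratio of fz2 to fz was 7.97 ± 2.09, with 10.2, 7.69 and 6.03 in replicates 1, 2 and 3, and fz itself was lowest in replicate 1. The Ryk family gene drl stood at 480.4 ± 29.0 TPM and the LRP co-receptor arr at 229 ± 24.1 TPM, each separate in range from its neighbours. The Wingless target fz3 was at 49.3 ± 3.07 TPM, the Ror gene was at 1.06 ± 0.543 TPM and not detected, and Drl-2 was at or under the floor. Downstream, arm, the fly beta-catenin, ranked 82 with 1186 ± 109.8 TPM. The kinase gene sgg had 296 ± 43.4 TPM, and the scaffold genes Axn and Apc2 had 130.1 ± 5.59 and 104 ± 4.72 TPM. The TCF gene pan lay at 143 ± 50.6 TPM. Notum, a feedback target of Wingless that encodes a secreted deacylase, was the lowest of the 11 transducers with 18.6, 32.4 and 37.7 CPM and was more than 2-fold higher in replicate 3 than in replicate 1.

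In the TGF-beta family the BMP ligand genes gbb and dpp lay below the receptor gene tkv. The gene gbb lay above the other listed receptor genes put, babo, sax and wit. The glass bottom boat gene gbb had 309, 305 and 241 CPM in replicates 1, 2 and 3 and 409 ± 46.5 TPM. The morphogen gene dpp, expressed in a stripe along the compartment boundary, had 144, 164 and 170.2 CPM and 109 ± 10.8 TPM. Per length dpp stood at 0.270 ± 0.0588 of gbb, and below it in each library. The maverick gene mav reached 333 ± 97.2 TPM, overlapping gbb, and the myoglianin gene myo 87.0 ± 27.0 TPM, overlapping dpp. Both lie on chromosome 4 and were highest in replicate 3. Of the other activin-type ligands, daw stayed at or below 2.28 CPM and Actbeta had 0 counts.

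The type I receptor gene tkv ranked 205, with 778, 796 and 855 CPM and 637 ± 46.2 TPM. It stood 3.51 ± 0.251-fold above the type II receptor gene put (182 ± 10.7 TPM) per length. The activin-type receptor babo and the BMP receptor sax had 131 ± 20.5 and 121 ± 2.85 TPM with overlapping ranges, and wit was lowest at 44.2 ± 6.43 TPM. The repressor gene brk, which Dpp signalling shuts off, was the highest of the Dpp transducers at 198 ± 17.9 TPM. The Smad gene Mad had 155, 162 and 158 CPM and its inhibitor Dad, a Dpp target, 140.4, 197 and 220.2 CPM, so Mad was steady and Dad lowest in replicate 1. Med could not be given a length and is described only as 148, 141 and 124 CPM.

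Of the genes for proteins that carry or modify the morphogens, 8 of 9 were detected, with a median percentile of 85.3 ± 1.56. The glypican genes dally and dlp had 427 ± 58.9 and 118 ± 12.0 TPM. The secreted Dpp modulator magu, also called pentagone, had 404 ± 46.7 TPM, and the Hedgehog transport gene shf 314 ± 38.9 TPM. The BMP antagonist sog and its processing enzyme tok stood at 95.6 ± 10.9 and 129 ± 6.93 TPM, whereas tsg, which acts with Sog in the embryo, had 0 counts. The crossvein genes cv and cv-2 were at 97.7 ± 1.29 and 56.3 ± 13.3 TPM.

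In the Hedgehog pathway the ligand was lower than its receptors. The gene hh, expressed in posterior cells, had 55.3, 49.8 and 53.5 CPM and 52.8 ± 3.61 TPM. The co-receptor genes ihog and boi reached 403 ± 23.1 and 207 ± 4.88 TPM, the signal transducer smo 136 ± 17.0 TPM, and the receptor and target gene ptc 64.2 ± 3.43 TPM. These receptor levels did not overlap in range, and ptc was the closest to hh. The cytoplasmic regulators Su(fu), cos and fu had 104 ± 4.27, 98.5 ± 7.72 and 59.5 ± 1.49 TPM.

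For Notch, the receptor gene N had 1528, 1441 and 1792 CPM and 381 ± 53.7 TPM. The ligand gene Ser stood at 226 ± 35.4 TPM and Dl at 72.0 ± 12.7 TPM. Dl was 0.324 ± 0.0826 of Ser per length, with 0.258, 0.298 and 0.417 in replicates 1 to 3, and Ser was highest in replicate 1. N exceeded Dl 5.31 ± 0.197-fold, a ratio that differed little between libraries. The ubiquitin ligase gene mib1 and the co-repressor gene H stood at 154 ± 10.6 and 148 ± 13.4 TPM with overlapping ranges. The DNA-binding factor Su(H) and the ligase gene neur were lower, at 36.6 ± 2.10 and 32.6 ± 3.60 TPM.

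The EGF receptor gene Egfr had 988, 939 and 977 CPM and 388 ± 17.6 TPM. Of its ligands, spi (456 ± 50.5 TPM) was highest, followed by the neuregulin-like vn (121 ± 13.8 TPM) and by Krn (50.9 ± 3.10 TPM), without overlap. The mean TPM of spi was above that of Egfr. The oocyte ligand grk had 5.25 ± 1.86 TPM. The protease gene rho, which releases active Spitz in vein cells, was low at 7.37, 7.06 and 12.6 CPM. Ras85D and rl, the genes of Ras and of the MAP kinase, stood at 237 ± 34.0 and 146 ± 48.6 TPM. The target genes aos and sty had 47.1 ± 7.06 and 40.7 ± 6.42 TPM. The FGF ligand ths had 58.8 ± 12.7 TPM and its partner pyr 8.69 ± 0.986 TPM, whereas the tracheal ligand bnl had 4.03 ± 0.957 TPM. The FGF receptors htl of muscle precursors and btl of tracheal cells were at 24.1 ± 2.57 and 6.90 ± 1.81 TPM.

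In the JAK/STAT, TNF and insulin pathways the ligands were low, and the receptors ranged from not detected to 272 TPM. Of the cytokine genes upd1 had 10.9, 15.0 and 11.9 CPM, upd3 1.54, 1.61 and 0.860 CPM and upd2 0.560, 0.441 and 0.561 CPM. The receptor gene dome stood at 173 ± 13.3 TPM, whereas the related gene et was not detected, at 0.522 ± 0.214 TPM. The transcription factor gene Stat92E had 273 ± 19.5 TPM. The TNF ligand egr had 4.52, 2.46 and 2.35 CPM, against 272 ± 24.9 TPM for its receptor grnd and 85.3 ± 4.85 TPM for wgn. Of 8 insulin and relaxin-like peptides none reached 1 CPM in all 3 libraries. Ilp6 had 0.840, 2.21 and 4.19 CPM and Ilp8, a signal of disturbed disc growth, 1.59, 1.51 and 0.710 CPM. Ilp2, Ilp3 and Ilp4 had 0 counts in all 3 libraries. The receptor gene InR had 118, 154 and 230.1 CPM, 1.95-fold apart between the lowest and highest library, and its 38.3 ± 14.0 TPM lay below the 59.7 TPM of the median detected protein-coding gene. The relaxin receptor gene Lgr3 was not detected, at 0.661 ± 0.703 TPM, an SD above its mean, and was highest in replicate 1. The ecdysone receptor subunits EcR and usp were steady, at 393, 429 and 427 and 166, 150.1 and 153 CPM. EcR exceeded usp 1.47 ± 0.149-fold per length, but the ratio was 0.965 with the longest annotated transcripts.

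**Figure D2:**
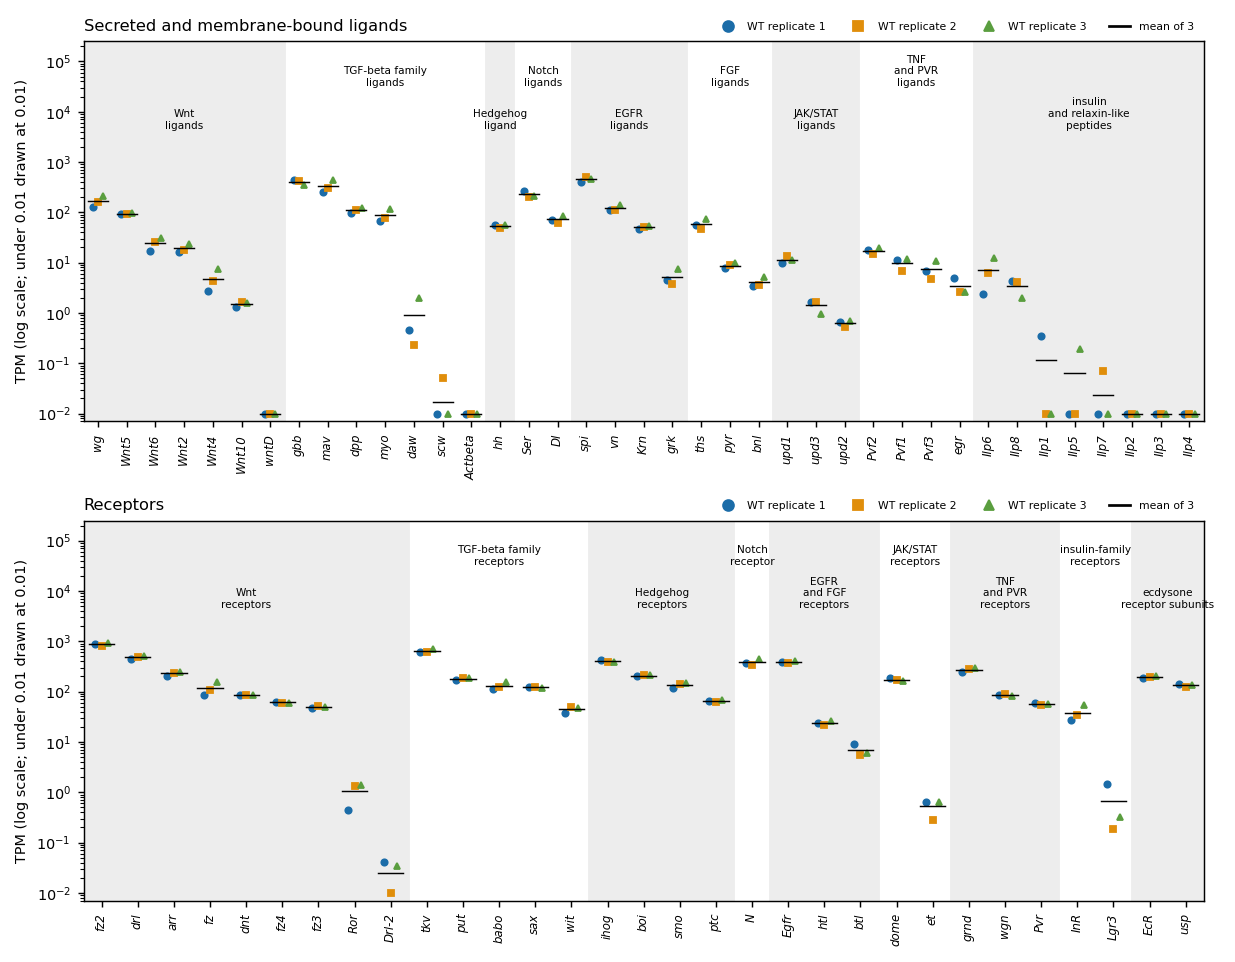
Levels of ligands (upper panel) and receptors (lower panel) in TPM on a log scale, with 1 symbol per wild-type library and a bar at the mean of 3; values under 0.01 TPM are drawn at 0.01. The ligands reach from 456 TPM for spi down to genes without counts, whereas 27 of the 31 receptors were detected and fz2 stands at 877 TPM.

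Of 16 gene ratios fixed for this description, the first gene was higher per length in all 3 libraries in 11 and lower in all 3 in the other 5. No ratio changed its side of 1 between libraries.

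Growth control genes were expressed throughout. All 8 genes of the Fat and Dachsous system, which links planar polarity to growth through a pair of giant cadherins, were detected, with a median percentile of 89.9 ± 0.806. The cadherin gene ft had 506, 657 and 737 CPM in replicates 1, 2 and 3. Its ligand gene ds had 1692, 1571 and 1838 CPM. Per length ft stood at 0.272 ± 0.0470 of ds, at 89.1 ± 17.9 and 328 ± 34.0 TPM, and below it in each library. The atypical myosin gene d was highest at 354 ± 15.4 TPM and overlapped ds. The Golgi kinase gene fj, whose product phosphorylates both cadherins, had 238 ± 44.8 TPM and was highest in replicate 3. The kinase dco stood at 184 ± 23.8 TPM, Dlish and lft at 141 ± 12.2 and 136 ± 8.37 TPM, and the palmitoyltransferase app at 59.2 ± 2.36 TPM.

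In the Hippo pathway, the kinase genes hpo and wts, which restrain growth, were less abundant than Diap1 and ex, targets of their effector Yorkie. The caspase inhibitor gene Diap1 and the FERM protein gene ex, both known Yorkie targets, ranked 166 and 214, at 738 ± 51.7 and 619 ± 47.7 TPM. The co-activator gene yki had 86.1, 90.8 and 83.9 CPM and 138 ± 2.70 TPM. The kinase genes hpo and wts had 125 ± 5.11 and 31.7 ± 3.86 TPM. The gene wts was the lowest of the 11 and did not overlap the next, sav (57.6 ± 10.5 TPM). The adaptor mats was at 144 ± 5.29 TPM, and kibra and Mer at 75.4 ± 11.6 and 58.1 ± 4.46 TPM. The summed CPM of the 11 genes was 3685, 3768 and 3809, within 1.03-fold across libraries.

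The core genes of Frizzled planar polarity were detected in 6 of 6 cases, with a median percentile of 74.9 ± 0.662. Vang led with 273 ± 15.0 TPM, and the 7-pass cadherin gene stan was lowest with 26.5 ± 4.19 TPM. The cytoplasmic members dsh, pk and dgo stood at 86.9 ± 9.63, 52.3 ± 5.02 and 48.5 ± 2.83 TPM. Junction and polarity genes were higher, with all 15 detected and a median percentile of 94.3 ± 0.949. The septate junction gene Fas3 had 966 ± 36.4 TPM, and Nrx-IV and cora had 483 ± 49.5 and 474 ± 24.6 TPM with overlapping ranges. The E-cadherin gene shg was steady at 934, 909 and 953 CPM. The tumour suppressor genes l(2)gl, scrib and dlg1 stood at 350.4 ± 52.6, 254 ± 17.9 and 239.8 ± 26.7 TPM. The lowest of the group was baz, the fly Par-3, at 43.3 ± 10.1 TPM.

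Cell cycle genes were all detected, 19 of 19, with a median percentile of 90.5 ± 0.217. The replication clamp gene PCNA was highest at 579.7 ± 72.0 TPM and 249.8, 293 and 219 CPM. The mitotic kinase polo followed at 390.05 ± 1.92 TPM. The phosphatase gene stg, which drives entry into mitosis, had 303, 356 and 343 CPM, and CycB and CycA had 285 ± 7.42 and 266 ± 32.5 TPM. The Cyclin E inhibitor dap was the lowest of the group, and stg exceeded it 5.12 ± 0.959-fold per length. The growth regulator Myc varied most, with 321, 475 and 704 CPM in replicates 1, 2 and 3. No other cell cycle gene was more than 2-fold apart.

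Cell death genes were low beside their inhibitor. The caspase genes Drice and Dronc had 122 ± 1.75 and 71.9 ± 3.47 TPM. Of the death inducers, hid had 80.4, 64.5 and 116 CPM, rpr 7.42, 7.76 and 6.05 CPM, and grim and skl 0 counts in all 3 libraries. Diap1 exceeded hid 12.0 ± 4.05-fold per length, with 12.9, 15.5 and 7.54 by library, and hid was highest in replicate 3.

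Ecdysone, the steroid that times larval moults and metamorphosis, acts in the disc through EcR and a cascade of early genes. The br gene had 3867, 3007 and 4819 CPM in replicates 1, 2 and 3, with replicate 2 lowest. Eip75B and Eip74EF, other early targets, stood at 136 ± 30.1 and 128 ± 10.2 TPM with overlapping ranges. The gene chinmo, which marks juvenile tissue before metamorphosis, had 229, 251 and 328 CPM. The prepupal factor ftz-f1 had 96.0, 72.2 and 63.7 CPM, and was the highest in replicate 1 where most of this list was not. Blimp-1 had 8.58, 4.63 and 19.6 CPM and Hr4 9.38, 8.80 and 26.2 CPM, both at least 2-fold higher in replicate 3 than in either other library. The late-stage genes Hr3 and Eip93F stayed at or below 0.637 CPM, and lin-28 had 0 counts. Of the 13 listed regulators with counts, 10 were highest in replicate 3, against 26.2% of all detected protein-coding genes. Only 10 of the 14 listed were detected, so the 13 include some below 1 CPM in at least 1 library. Among ecdysone-inducible disc genes, ImpE2 reached 718 ± 139 TPM, while ImpL2, which encodes a binding protein of insulin-like peptides, differed most between libraries with 58.0, 16.7 and 32.1 CPM.

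Stress genes differed between libraries in another way. The small heat shock gene Hsp23 had 635, 309 and 280.2 CPM, more than 2-fold higher in replicate 1 than in either other library. Lactate dehydrogenase, Ldh, had 26.1, 7.82 and 6.13 CPM and the stress gene Gadd45 38.1, 20.0 and 20.0 CPM, again with replicate 1 highest. In contrast Hsp27 was steadier at 1210.3, 1027 and 1062 CPM, and the inducible Hsp70 genes reached at most 2.58 CPM. Near-identical Hsp70 copies cannot be separated reliably by the deposited estimates. Of the 13 stress genes with counts, 10 were highest in replicate 1, 0 in replicate 2 and 3 in replicate 3, against 36.7%, 37.1% and 26.2% of all detected protein-coding genes. Only 9 of the 15 listed stress genes were detected, so the 13 include some below 1 CPM in at least 1 library. The JNK phosphatase gene puc, a readout of JNK activity, did not follow the stress genes, with 66.1, 65.9 and 80.8 CPM.

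Genes of dosage compensation and sex determination were all detected. The male-specific RNA roX1 had 1114, 2030.3 and 1922 CPM and roX2 44.4, 97.5 and 59.7 CPM, both lowest in replicate 1. Per length roX1 exceeded roX2 4.31 ± 0.950-fold. This ratio depended on the length used, with 7.37 for the longest annotated transcripts and 26.0 in CPM. Sxl, the master switch of sex determination, stood at 293 ± 58.6 TPM. The msl-2 gene, whose protein assembles the male complex, had 153, 168 and 140.4 CPM, so it spread less than the roX RNAs.

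Markers of the tissues that adhere to a disc were read as whole lists. All 6 adult muscle precursor genes were detected, with summed levels of 339, 277 and 302 CPM. Among them Mef2 had 71.2 ± 6.59 TPM and twi, the defining mesoderm factor, 40.7, 29.0 and 25.3 CPM, highest in replicate 1. The 7 haemocyte genes, of which 6 were detected, summed to 68.0, 97.2 and 149 CPM. Each of the 7 was highest in replicate 3, against 26.2% of all detected protein-coding genes. Hml, which encodes hemolectin, had 17.0, 19.4 and 38.9 CPM and Pxn 13.4, 15.9 and 31.1 CPM. Fat body genes were low, with a sum of 29.4, 15.5 and 22.0 CPM, and the salivary glue genes summed to 12.0, 0.189 and 0.112 CPM, almost all of it in replicate 1. Sgs3 alone had 6.58, 0 and 0.0374 CPM. The sarcomere list summed to 92.4, 114 and 113 CPM, most of it from the titin gene sls, while Mhc had 0.653, 4.13 and 2.47 CPM, lowest in replicate 1. Of 8 neuronal genes only Syx1A, a general secretion gene, and elav, at 45.5 ± 11.2 TPM, were detected. The synaptic genes brp, nSyb and Syt1 lay at or below 0.747 CPM. The part that these cells have in the differences between libraries was not tested.

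The tracheal list gave a split result. The chitin deacetylase genes verm and serp were very abundant, at 1898 ± 192 and 914 ± 158 TPM, and verm ranked 35. The defining tracheal factor trh had only 30.7 ± 4.22 TPM, the FGF receptor btl 6.90 ± 1.81 TPM, and the Osiris genes Osi17, Osi18 and Osi19 were at or under the floor. The summed level of the list, 3373, 3126 and 2800.2 CPM, was thus carried by the deacetylases and by vvl, which is also a pouch gene.

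Housekeeping classes took 9.79 ± 0.960% of all counts in 449 genes. Cytosolic ribosomal protein genes were, apart from the list of reference genes used in quantitative PCR, the highest class, with a median of 688 TPM, a median percentile of 98.7 ± 0.131 and 84 of 92 genes detected. They held 2.66 ± 0.304% of the counts. The laminin-receptor-like subunit gene sta led at 2729.7 TPM. The 8 members that were not detected were paralogues such as RpS5b, RpL10Aa and RpS28a. The reference gene RpL32, often used in quantitative PCR, had only 89.3, 98.7 and 81.9 CPM and 321 ± 22.4 TPM. TPM from annotated lengths understates short genes, and the median length of this class was 708 bases.

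The other classes had lower medians. Proteasome subunits had a median of 272 TPM with 34 of 37 detected, and all but the paralogues whose names end in R and Prosalpha1 lay between 163 and 440 TPM. Translation factors followed with 174 TPM, oxidative phosphorylation with 142 TPM and RNA polymerase II with 107 TPM. Genes of tRNA synthetases had a median of 73.3 TPM, and those of the cytosolic enzymes SerRS and AspRS reached 392 and 342 TPM, whereas the mitochondrial ValRS-m had 10.7 TPM. Mitochondrial ribosomal proteins had all 73 genes detected in a narrow range of 22.1 to 137 TPM around a median of 56.1 TPM. For the vacuolar proton ATPase 17 of 32 genes (53.1%) were detected, near the 54.6% of all protein-coding genes. The list ran from Vha16-1 at 826 TPM to paralogues without counts. Only 5 of 33 listed histone genes (15.2%) were detected, against the same 54.6%. Most of the others were replication-dependent copies, which share most of their sequence. Estimates for single copies are uncertain, so this count does not give the level of these histones. The replacement histone gene His3.3B had 2775 TPM. No source used here says whether polyadenylated RNA was selected.

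**Figure D3:**
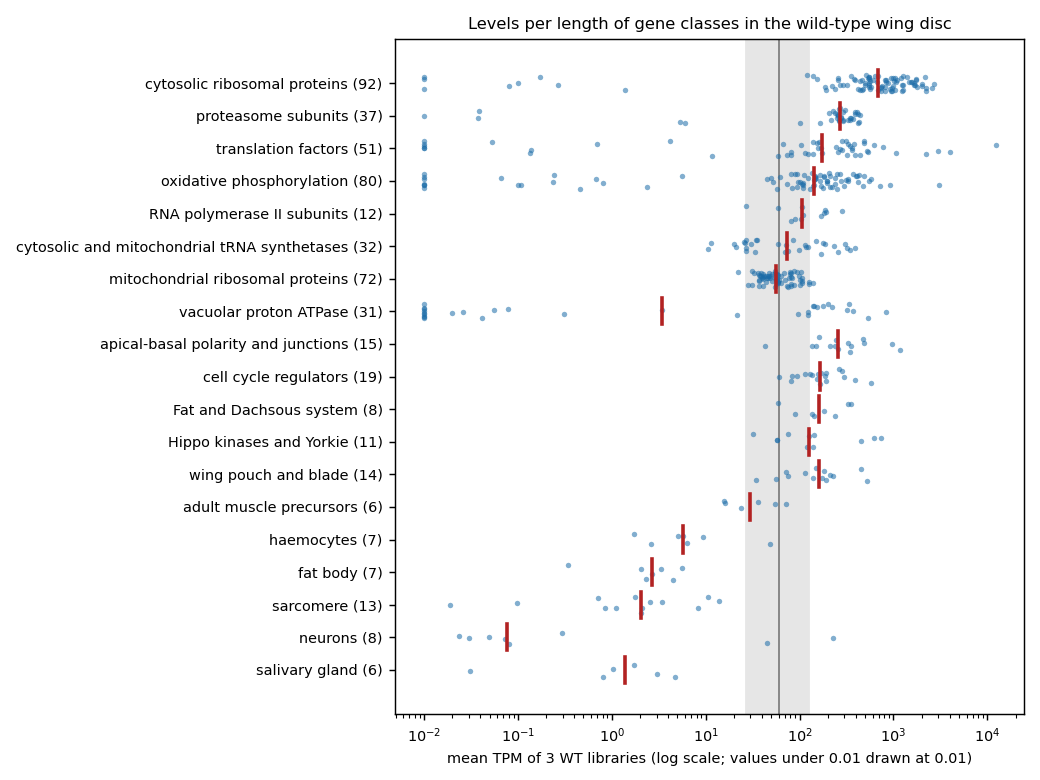
Mean TPM of each gene (points, log scale, values under 0.01 drawn at 0.01) by class, with the number of genes in brackets and a red bar at the class median; the grey line and band are the median and the middle quartiles of detected protein-coding genes. Cytosolic ribosomal proteins have a median of 688 TPM against 59.7 TPM for detected genes, whereas the fat body, sarcomere, salivary and neuronal lists lie mostly below the band.

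The 3 libraries agreed closely in rank but not within counting error. Spearman correlations across the 6431 genes averaging 10 CPM or more were 0.977 for replicates 1 and 2, 0.964 for 1 and 3, and 0.986 for 2 and 3, where genes are not independent points. Chi-square per degree of freedom was 57.8, 94.0 and 64.1 for the same pairs, where counting noise alone gives about 1, so no pair agreed within sampling noise. This does not show that the libraries came from separate larvae. The common coefficient of variation between libraries was 20.8% over 8496 genes in edgeR, and 16.0% without replicate 1. For single genes its estimate had a median of 17.6%, with 12.3% at the 10th and 32.1% at the 90th percentile of genes.

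The highest library exceeded the lowest by more than 2-fold for 258 of 6431 genes (4.01%), and the median ratio was 1.24. Without replicate 1 the number was 51, without replicate 2 it was 225, and without replicate 3 it was 128. Of the 609 listed genes at that level, 31 exceeded 2-fold. Besides hth, Myc, Hsp23, Ldh, ImpL2, Blimp-1 and Hr4 they included Ubx, elB, Notum, Pvf3, Hml, Pxn and roX2, and 8 transcripts of the mitochondrial genome. No gene of the pouch, notum, compartment, receptor, Hippo or Fat and Dachsous lists was among them.

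Of the 38 genes that set replicate 1 apart, 5 had 0 counts in replicate 1 and 5 had 0 counts in both others. The gene p24-2 (3R:9687402-9692794) had 1009.6, 0 and 0 CPM, and Unc-115b (3R:9687060-9692775), which overlaps it, had 256, 0 and 0 CPM. Their neighbour CG32939 (3R:9693079-9694461) went the other way, with 0, 17.1 and 16.9 CPM. The flanking genes eca, of the p24 family as p24-2 is, and Unc-115a, a paralogue of Unc-115b, were expressed in all libraries at 139.96, 119 and 85.5 and 262, 240.4 and 197 CPM. On 2R, CG18853 (7829062-7830429) had 128, 0 and 0 CPM, whereas Prosalpha1, 384 bases away, had 3.40, 42.7 and 73.8 CPM. The adjacent cytochrome P450 genes Cyp4p2 and Cyp4p1 had 0.140, 141 and 149.8 and 0, 18.8 and 20.8 CPM. Likewise the gustatory receptor genes Gr64a and Gr64b had 39.6, 0 and 0 and 33.1, 0 and 0.0374 CPM.

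Of the 38 genes, 16 were higher and 22 lower in replicate 1. They lay on all major chromosomes, 7 on 2L, 11 on 2R, 11 on 3L, 7 on 3R, 1 on 4 and 1 on X. Another of the 38 lay within 20000 bases for 19 of them, among which were overlapping genes and histone H1 copies. The like share of other genes at that level was not counted, so no grouping is read from it. Of the 38, 20 (52.6%) overlapped another gene, as did 51.0% of all genes at that level. Among the remaining large ratios, the 28S rRNA copy CR45844 had 26.9, 329.5 and 0 CPM and lncRNA:CR40469 had 0.0629, 39.2 and 205 CPM. Estimates for rRNA and histone copies, which share most of their sequence, are uncertain. Coordinates are those of the dm6 assembly. Whether the libraries came from different cultures of w1118, and the part of that in these 38 genes, was not tested.

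**Figure D4:**
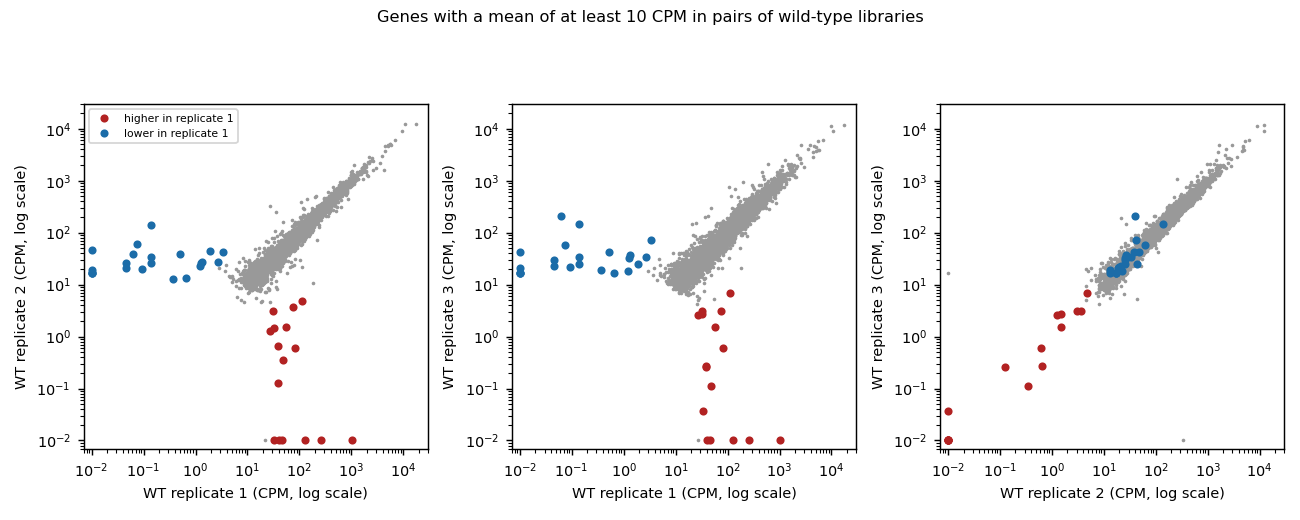
CPM of the 6431 genes averaging 10 CPM or more in each pair of wild-type libraries, on log axes, with values under 0.01 CPM drawn at 0.01; red and blue points are the 16 and 22 genes at least 10-fold higher or lower in replicate 1 than in both others. The coloured points lie off the diagonal in both panels with replicate 1 and mostly along it in the panel of replicates 2 and 3.

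Whole gene classes also moved between libraries by small amounts. The values below are medians over genes of the log2 ratio of a library's CPM to the mean of 3, and over all genes averaging 1 CPM or more they were 0.00, 0.03 and -0.05 in replicates 1, 2 and 3. Cytosolic ribosomal protein genes had 0.03, 0.14 and -0.17, mitochondrial ribosomal proteins 0.09, 0.10 and -0.23, proteasome subunits 0.08, 0.10 and -0.19 and oxidative phosphorylation 0.05, 0.12 and -0.21, all lowest in replicate 3. Ecdysone-timed regulators had -0.19, -0.16 and 0.30, and pouch genes -0.18, -0.05 and 0.16, both highest in replicate 3.

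Transcript length moved with the same contrast. Transcripts of at least 5000 bases took 17.5%, 17.3% and 19.2% of the counts in replicates 1, 2 and 3, and those of up to 1000 bases 5.14%, 5.62% and 4.78%. Across the 6267 protein-coding genes at 10 CPM or more with counts in all 3 libraries, the Spearman correlation of length with the log2 ratio of replicate 3 to replicate 2 was 0.49, as a description, and with that of replicate 3 to replicate 1 it was 0.26. The part of length in the class differences was not tested.

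A larger difference was seen for the mitochondrial genome. Its 13 mRNAs, of which 8 were detected, summed to 682, 1961 and 3608 CPM. All 13 were highest in replicate 3, against 26.2% of all detected protein-coding genes. The list was added after its values were seen. The cytochrome oxidase gene mt:CoI had 198, 487 and 940.1 CPM and mt:Cyt-b 119, 293 and 498 CPM, so each was lowest in replicate 1 and highest in replicate 3. The nuclear genes of oxidative phosphorylation, in contrast, were lowest in replicate 3. All transcripts of the mitochondrial genome, its rRNAs included, took 0.325%, 0.360% and 0.856% of the counts.

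**Figure D5:**
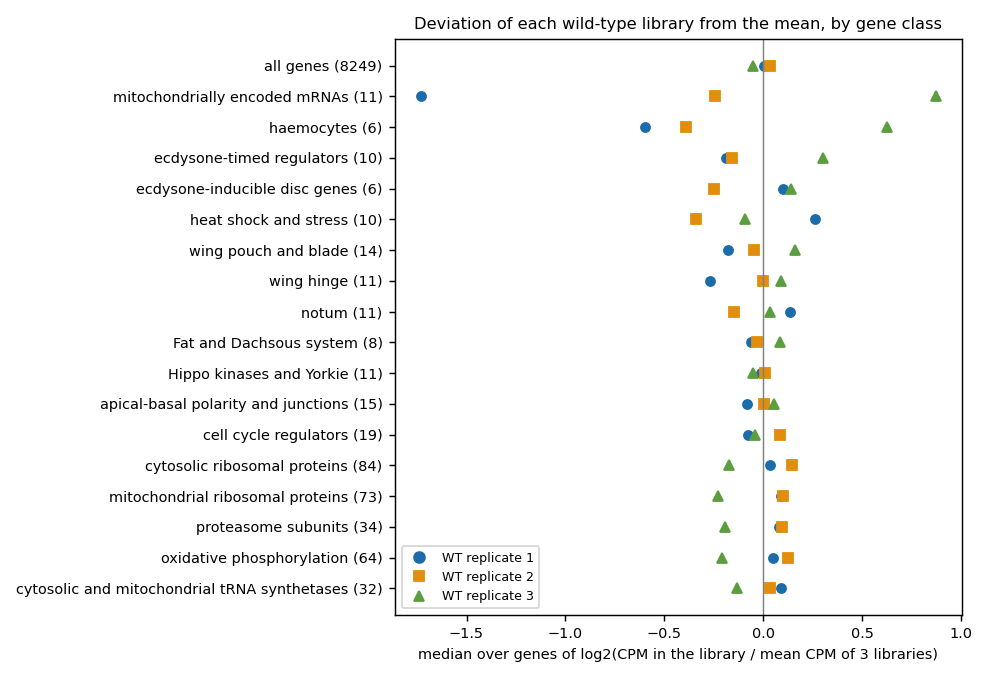
Median over the genes of each class of the log2 ratio of a library's CPM to the mean of the 3 wild-type libraries, with 1 symbol per library, the number of genes in brackets and a line at no deviation. The median of mitochondrially encoded mRNAs ran from -1.73 in replicate 1 to 0.87 in replicate 3. The medians of the Hippo list and of the Fat and Dachsous list stay within 0.1 of no deviation, though single genes such as ft differed more.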

How the data were processed

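Total RNA (10 ng per library) was converted to paired-end libraries by 12 to 15 cycles of amplification and read for 150 bases from either end, per the labels' protocols. The tools named are Salmon 1.80 (as written), Trimmomatic 0.33, FastQC 0.10 and edgeR, with the build dm6, per the submitters' processing notes. No source used here gives the annotation release, strand setting or RNA selection. The deposited table holds expected counts per gene, which the authors did not scale between libraries, and 0 columns were left without a sample. Estimates of overlapping, antisense and near-identical genes are uncertain.

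CPM used the total count, unrounded. TPM used the median annotated transcript length (Ensembl BDGP6.54, with dm6 coordinates), not the effective length. It was found for 17083 of 17208 identifiers, and the other 125 held 1.37% of the counts. Genes in the table matched the gene name table under the same symbol in 16098 cases. The spread was estimated with edgeR 4.0.16 in R 4.3.3 from rounded counts (TMM scaling, filterByExpr, intercept only) and checked on simulated data. Median-of-ratios factors came from DESeq2 1.42.0, and tables and figures from Python 3.11.15 with pandas 2.3.3 and matplotlib 3.10.9. Detection required 1 CPM in all 3 libraries.

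Samples were grouped by title. No test was run, and none against ds38k. The gene lists, ratios and thresholds were chosen from textbook knowledge with earlier results of these data known. The text may name any list member, the 15 highest genes by TPM, the 10 largest ratios between libraries, w and exd. The neighbours and examples given for the genes that set replicate 1 apart, and the genes of the closing observations, were chosen after their values were seen.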

Additional observations from a re-analysis of the deposited data

How the results depend on the processing

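No paired analysis was possible because the results come from no test. With each replicate left out in turn, the genes detected ranged from 7890 to 8049, the ribosomal protein share of counts from 2.53% to 2.83%, the mitochondrial share from 0.343% to 0.608%, and the share of transcripts of at least 5000 bases from 17.4% to 18.4%. Median percentiles ranged from 76.9 to 78.4 for region genes, 48.9 to 50.8 for ligands, 85.7 to 86.8 for receptors and 86.9 to 87.3 for housekeeping genes. The number of ratios above 1 in all libraries stayed at 11. The coefficient of variation ranged from 16.0% to 25.3%, and the genes more than 2-fold apart from 51 to 225.

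Without rRNA genes the mitochondrial share was 0.211%. Among detected genes only, the median percentiles were 58.7 for region genes, 8.77 for ligands, 73.9 for receptors and 77.3 for housekeeping genes. The longest transcript gave 85.9 for housekeeping genes and turned 3 ratios, en to inv to 1.15, hth to exd to 0.926 and EcR to usp to 0.965. A further 4 ratios moved by more than their SD without crossing 1. These were N to Dl with 5.96, tkv to put with 4.32, vg to sd with 0.272 and roX1 to roX2 with 7.37. With no filter on low counts the coefficient of variation was 30.0%, and 41 genes of at least 100 CPM were more than 2-fold apart. Detected genes numbered 8318 at 0.5 CPM and 6793 at 5 CPM. Low ligands and regional genes are limited by depth, by the floor of 3 counts, and by the number of libraries, 3 of 1 genotype.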

Other observations

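Genes of the small chromosome 4 were detected more often and at higher levels than those of the large chromosomes. Of its 79 protein-coding genes 60 (75.9%) were detected, against 51.8% to 60.5% on X, 2L, 2R, 3L and 3R. The median of its detected genes was 143 TPM, and it was 56.7 to 63.2 TPM on the others. By library the chromosome 4 median was 106, 128 and 188 TPM in replicates 1, 2 and 3, whereas the medians of the other chromosomes moved by less than 5 TPM. Its detected genes had a median transcript length of 3449 bases, against 1933 to 2211 bases elsewhere. Their share of all counts was 1.34%, 1.56% and 1.95%. The TGF-beta ligand genes mav and myo and the Hedgehog effector gene ci, all on this chromosome, were each highest in replicate 3. On the Y chromosome 0 of 23 protein-coding genes were detected.

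The RNA lncRNA:CR42862 was the most abundant annotated gene outside the protein-coding and rRNA classes, with 4513, 4727 and 4656 CPM in replicates 1 to 3. It differed between libraries less than roX1, which had 1114, 2030.3 and 1922 CPM.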
